A study of Auxenochlorella pyrenoidosa with 12 samples.

Results

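The contigs described here were low in cells of the green alga Chlorella pyrenoidosa on day 0 of an exposure to potassium peroxymonosulfate (PMS) and were back near the level of untreated cells on day 12. They are 161 of the 30814 contigs of a de novo transcriptome assembly. A contig is an assembled transcript sequence, and the deposited table pairs none of them with a gene name. Membership was set on L, the mean log2(FPKM + 1) of the 2 libraries of a group, where FPKM is the number of sequenced fragments scaled to contig length and library size. A member had at least 3 FPKM in both control libraries, an L on day 0 at least 1.5 below the control, and an L on day 12 less than 1 above or below the control. The values of the control, day 0 and day 12 libraries thus chose the members, so these values are given below as a description without a test.

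PMS was given at 8.49 mg/L, 0.5 of the median effective concentration of the acute test, and RNA of whole cells was sequenced. Treated cells were sampled at the start (day 0) and on days 3, 6, 9 and 12. The control cells without PMS form the sixth group, so that 12 libraries fall into 6 groups of 2. The label of the control does not settle its sampling day, and later days have no control of their own among the libraries analysed here, so time in culture and exposure cannot be told apart in any difference from it. Whether the 2 libraries of a group were grown as separate cultures is not stated, and p-values therefore reflect the spread between these libraries, which may be technical.

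Peroxymonosulfate is a strong oxidant used in water treatment, which can give rise to sulfate and hydroxyl radicals. In microalgae, oxidants act on membranes, pigments and the photosynthetic apparatus, and cells respond with antioxidant enzymes and with repair of damaged protein. The title of the study relates short-term toxicity to a fast breakdown of the compound, and the comparison of early with late days bears on how long transcript levels differ. The level of a transcript in bulk RNA follows both its amount per cell and the make-up of the culture, which cannot be told apart here.

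Facts of the whole series bear on the values as follows. Total FPKM per library lay between 487140 and 603105, and the number of reads is unknown. FPKM is a share of a library, so a change in abundant contigs shifts all others. Scaling libraries by their median ratio moved the median difference of all tested contigs from 0.23 to 0.05 for day 6 minus day 3 and from 0.31 to 0.10 for day 9 minus day 3 (log2 scale). This scaling divides the control libraries by 1.28 and 1.24 and those of day 3 by 0.790 and 0.825. Those of days 6, 9 and 12 are divided by 0.965 to 1.04. Levels and differences from the control are given below without this scaling, which would move the control down and day 3 up. The 2 day 9 libraries stood apart from each other for the members, as described below, and results that rest on them are given with and without each library.

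Most members were transcripts of modest level in untreated cells. Their mean control FPKM had a median of 6.88 and ran from 3.13 to 290, with 103 members under 10 FPKM, 55 between 10 and 100 FPKM and 3 at 100 FPKM or more. Under 10 FPKM lay 64.0% of the members and 45.8% of the 10369 contigs with at least 3 FPKM in both control libraries. All 161 members averaged 1 FPKM or more across the 12 libraries, the filter for testing. The members together held 0.549% and 0.442% of the total FPKM of the control libraries and 0.152% and 0.0623% of that of the day 0 libraries.

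The median level of the members was 7.43 and 6.32 FPKM in control libraries 1 and 2. It was 1.33 and 0.841 FPKM in the day 0 libraries, which is the drop the rule asked for. On day 3 the median was 1.45 and 2.69 FPKM, and on day 6 it was 2.01 and 2.67 FPKM, so the typical member was still well under the control on day 6. On day 9 library 1 had a median of 2.47 FPKM and library 2 one of 7.01 FPKM. The former is near the day 6 libraries and the latter near the day 12 libraries, which had 7.42 and 6.74 FPKM.

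**Figure D1:**
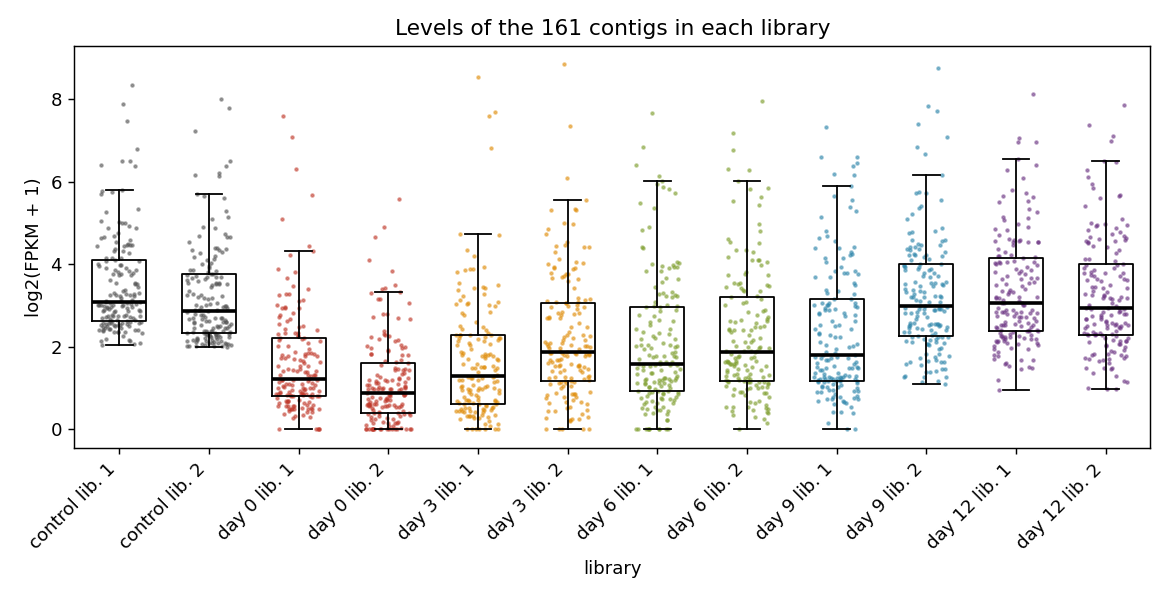
Level of each of the 161 members, as log2(FPKM + 1), in each of the 12 libraries; points are contigs, boxes span the quartiles, the thick line is the median and whiskers reach to 1.5 times the box height. Day 9 library 1, with a median of 2.47 FPKM, resembles the day 6 libraries, and day 9 library 2, with 7.01 FPKM, resembles control and day 12.

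The day 0 drop differed in depth among members. L on day 0 was 1.87 below the control at the median member, and the range was -3.93 to -1.502. It was between -2 and -1.5 for 106 members, between -2.5 and -2 for 39, and lower for 16. Members were thus crowded at the edge set by the rule. Just inside that edge lay values of -1.502, -1.516 and -1.519, and just outside it values of -1.49997, -1.497 and -1.493 in contigs that met the other conditions. On day 12 the members nearest the lower edge had differences from the control of -0.98, -0.97 and -0.96, and contigs just outside it -1.01, -1.01 and -1.02. At the upper edge the values were 0.99, 0.98 and 0.97 inside and 1.01, 1.02 and 1.02 outside. The lowest control value of a member was 3.02, 3.04 and 3.05 FPKM just inside the limit and 3.00, 2.97 and 2.97 FPKM just outside. No gap in the values separates members from their neighbours at these edges.

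Day 0 library 2 was the lower library for most members. Relative to the control mean the median difference was -1.74 in day 0 library 1 and -2.07 in library 2 (log2 scale). In 112 members both day 0 libraries were at least 1.5 below the control mean, and in 151 both were at least 1 below. For the other 10 members library 1 was less than 1 below the control mean, and library 2 carried the drop. Both day 0 libraries lay below both control libraries in 160 members, a count that the rule itself largely fixes. Its share over all tested contigs was not worked out, so nothing is read from it. By a different measure, 8.12% of all tested contigs had an L on day 0 at least 1 below the control, which the rule asks of every member.

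Some of the most abundant members owed their place to day 0 library 2 alone. The member with the second highest control mean had 234 and 218 FPKM in control cells and 192 and 8.98 FPKM in the day 0 libraries. Its later values were 373 and 161 FPKM at day 3, 201 and 246 at day 6, 160 and 430 at day 9 and 133 and 165 at day 12. Only day 0 library 2 is low here, while day 3 library 1 and day 9 library 2 are the high ones. Another 2 members had the same profile. The first had 89.2 and 81.9 FPKM in the control, 78.4 and 0 at day 0, 205 and 67.5 at day 3, 84.0 and 109 at day 6, 58.2 and 226 at day 9 and 52.4 and 88.0 at day 12. The second had 54.4 and 47.7 FPKM in the control, 49.9 and 0 at day 0, 111 and 39.4 at day 3, 60.8 and 56.9 at day 6, 41.1 and 168 at day 9 and 29.1 and 49.8 at day 12. These profiles were picked out after their values were seen, and the day 0 values of 0 are given as listed.

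Other members of high level or deep drop showed the day 0 low in both libraries. The member with the highest control mean had 322 and 258 FPKM in control cells and 134 and 47.1 at day 0. It then had 193 and 460 FPKM at day 3, 114 and 144 at day 6, 96.8 and 209 at day 9 and 278 and 230 at day 12, so that it was near the control on day 3 and lower again on day 6. The member with the next control level had 177 and 149 FPKM in the control, 33.5 and 29.2 at day 0, 13.9 and 15.6 at day 3, 69.1 and 76.6 at day 6, 86.4 and 113 at day 9 and 124 and 138 at day 12. It was lowest on day 3, and its libraries of a day lay close together.

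The largest drop on the log2 scale, -3.93, belonged to a member with 19.7 and 13.6 FPKM in control cells and 0.298 and 0 FPKM at day 0. It had 2.01 and 5.48 FPKM at day 3, 1.31 and 3.40 at day 6, 4.43 and 14.3 at day 9 and 23.4 and 22.7 at day 12, and library 2 was the higher on each of days 3, 6 and 9. The next largest, -3.49, belonged to a member with 109 and 90.1 FPKM in control cells and 7.86 and 7.96 at day 0. Its level was 13.1 and 25.5 FPKM at day 3, 43.9 and 45.4 at day 6, 82.3 and 135 at day 9 and 124 and 127 at day 12. The member after it, at -3.36, went from 15.2 and 13.0 FPKM in the control to 0.422 and 0.503 at day 0. It had 1.37 and 3.10 FPKM at day 3 and was within the control range by day 6, at 13.3 and 13.1 FPKM. Members of deep drop therefore reached the control level on different days.

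The rule was also applied to 1 library of each group, and the drop of the contigs so chosen was described in the other. Chosen on library 1 of the control, day 0 and day 12, 273 contigs met the rule. In library 2, day 0 minus control had a median of -1.52 over them (quartiles -1.95 and -1.13) and was at most -1 in 217, 79.5%. Over all 11284 contigs with at least 3 FPKM in control library 1 that share was 10.2%. On day 12, 81.3% of the 273 were within 1 of the control in library 2, against 51.7% of the 11284. Chosen on library 2, 220 contigs met the rule. They had a median of -1.51 in library 1, with 162 of them (73.6%) at most -1 there, against 8.68% of 10900 contigs. The full limit of -1.5 was passed by 145 of the 273 and 110 of the 220. Of the 273 and the 220 contigs, 124 and 125 are also members. These values bear on the control, day 0 and day 12 alone. The members were chosen on both libraries of these groups. The shares therefore describe the 273 and the 220 contigs and are no test of the members' drop. The libraries of a group may be technical repeats, so whether the drop recurs in a separate culture was not tested.

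Days 3, 6 and 9 were not used by the rule, although the control they are set against was. On day 3, L was 1.46 below the control at the median member, on day 6 it was 1.27 below and on day 9 it was 0.59 below. Over all 10369 contigs with at least 3 FPKM in both control libraries, the median differences were -0.79, -0.60 and -0.60. On day 3, 113 members were at least 1 below the control, on day 6, 108, and on day 9, 33. Of all tested contigs the same held for 33.0%, 27.0% and 25.4%. Both libraries lay below both control libraries in 132 members on day 3, 141 on day 6 and 71 at day 9, beside 52.7%, 48.5% and 43.9% of all tested contigs. Since the members were chosen to be high in the control, these counts are a description only.

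The lowest of the treated days was day 0 for 110 members, day 3 for 38 and day 6 for 13. The highest was day 12 for 138 members, day 9 for 13, day 3 for 7 and day 6 for 3. In 36 members L did not fall at any step from day 0 to day 12. Any small dip counts as a fall here. From day 3 to day 6, L was lower in 79 members, of which limma called 5. How common an even climb was therefore cannot be read from the count of 36. On day 3, 42 members had an L below that of day 0, and on day 6, 20. The L on day 12 was at least 1 below the control in 26.3% of all tested contigs and, by the rule, in 0 members. Both libraries lay above both day 0 libraries in 74 members on day 3, 101 on day 6 and 125 at day 9, beside 33.3%, 41.9% and 42.2% of all tested contigs. The rule asked for a low day 0 and a day 12 near the control, which favours these orders. The counts of lowest and highest days and those against day 0 are therefore a description only.

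Members were grouped by the sampling day from which L stayed within 1 of the control to day 12. This was day 3 for 26 members (16.1%), day 6 for 24 (14.9%), day 9 for 77 (47.8%) and day 12 for 34 (21.1%). With day 3 library 1 alone the day 3 and day 6 groups held 19 and 31 members, and with day 3 library 2 alone 30 and 20. The 26 include members whose drop rested on day 0 library 2, among them the 3 abundant ones described above. The 26 earliest had medians of 8.80 and 7.15 FPKM in control cells, 2.24 and 1.10 at day 0 and 6.69 and 11.9 at day 3. The 24 members near the control from day 6 had the highest control levels of the 4 groups. Their median was 14.9 and 13.8 FPKM in the control, 2.83 and 2.27 at day 0, 2.46 and 4.80 at day 3, 12.5 and 12.8 at day 6 and 21.6 and 21.5 at day 12.

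The 77 members that came near the control from day 9 had medians of 7.22 and 5.42 FPKM in control cells, 1.14 and 0.841 at day 0, 0.963 and 2.20 at day 3 and 1.47 and 2.00 at day 6. On day 9 the median was 2.22 FPKM in library 1 and 6.66 in library 2, and on day 12 it was 6.48 and 5.87. With day 9 library 1 alone, 24 members fell into this group and 93 into the last, and with library 2 alone, 98 and 17. Whether most members were back near the control on day 9 or on day 12 therefore depended on which day 9 library was read. The 34 latest members had 6.47 and 5.35 FPKM in the control, 0.831 and 1.23 at day 6 and 1.14 and 2.43 at day 9. At 3.63 and 3.40 FPKM at day 12, they lay under the control within the margin that the rule allows.

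**Figure D2:**
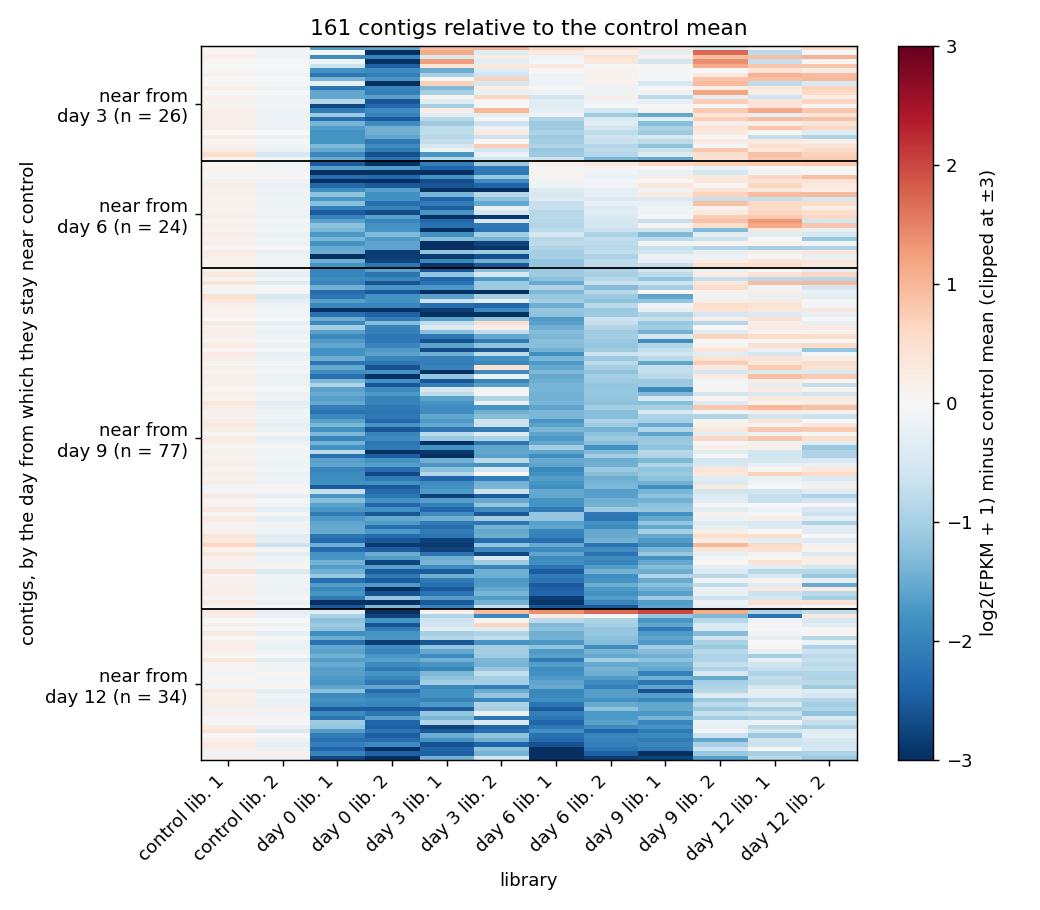
Each row is a member and each column a library; colour gives log2(FPKM + 1) minus the control mean, clipped at 3 in either direction, and black lines part the members by the day from which they stay near the control. In the group of 77, day 9 library 1, with a median of 2.22 FPKM, is nearer to the day 6 libraries (1.47 and 2.00) than to day 12. Day 9 library 2, with 6.66 FPKM, is near day 12 (6.48 and 5.87). Single members differ from this.

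A lone member passed the control by 1 or more on the way. It stood 2.47 below the control on day 0, 0.54 above it on day 3, 1.55 above on day 6 and 1.56 above on day 9, and 0.84 below on day 12 (L minus control). Its FPKM was 28.3 and 19.2 in the control, 17.8 and 0.0193 at day 0, 25.6 and 45.8 at day 3, 63.4 and 77.8 at day 6, 95.9 and 52.0 at day 9 and 11.6 and 13.6 at day 12. Its day 0 value also rested on library 2.

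Tests were limited to differences among days 3, 6 and 9, whose libraries the rule did not use. The spread was pooled over all 12 libraries, however, so libraries that the rule used enter each p-value. The 3 abundant members above whose drop rested on day 0 library 2 had SEs of 1.12, 1.64 and 1.50 for day 6 minus day 3. They came from limma fitted on log2(FPKM + 1) of the 17653 contigs that averaged 1 FPKM or more, with Benjamini-Hochberg adjustment over all of them and a threshold of 0.05. Fold changes on this scale understate the change of low contigs. From day 3 to day 6, 29 members rose and 5 fell, 18.0% and 3.11% of the 161. Of all tested contigs 31.2% were called higher and 14.4% lower, so the members' shares were under the background in either direction, a difference that was not tested. With only the 6 libraries of days 3, 6 and 9 in the fit, 21 members rose and 1 fell. These were 13.0% and 0.621%, beside 25.4% and 11.1% of all tested contigs. The median difference was 0.02 over the members and 0.23 over all tested contigs (log2 scale). With rescaled libraries the split was 26 higher and 12 lower members, beside 25.4% and 22.0% of all tested contigs, and the higher share of the member calls went from 85.3% to 68.4%. The median of the members turned to -0.12. For all contigs the higher calls went from 68.5% to 53.6% of the calls. The count of lower members was 0 with day 3 library 2 or day 6 library 1 left out, beside 14.0% and 10.8% of all tested contigs. It was 1 with day 6 library 2 left out, beside 10.4%, and 12 with day 3 library 1 left out, beside 11.7%. It was 14 with either day 9 library left out, beside 15.7% and 15.8%, which acts on this contrast by way of the pooled spread.

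The rising members were mostly those near the control from day 6 on. They made up 17 of those 24, 10 of the 77 and 2 of the 26, and none of the 34 latest. The grouping uses the day 3 and day 6 levels themselves, so this is a description. The largest rise was that of TRINITY_DN3603_c0_g1_i1_4. It had 83.3 and 70.1 FPKM in the control, 20.8 and 24.3 at day 0, 3.49 and 7.51 at day 3, 57.2 and 63.3 at day 6, 71.0 and 101 at day 9 and 93.1 and 89.9 at day 12. Day 3 was its lowest day and both day 6 libraries lay far above both day 3 libraries. It rose by 3.31 (SE 0.27, limma adjusted p = 1.59e-05) on the log2 scale, from 5.50 ± 2.84 to 60.3 ± 4.32 FPKM (SD, n = 2 libraries).

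TRINITY_DN1118_c0_g1_i1_4 had 53.8 and 51.1 FPKM in the control, 5.16 and 5.63 at day 0, 3.87 and 11.1 at day 3, 56.0 and 48.3 at day 6, 45.7 and 36.2 at day 9 and 48.6 and 50.0 at day 12. It was back at the control level by day 6 and stayed close to it. Its rise from day 3 to day 6 was 2.79 (SE 0.34, limma adjusted p = 0.000165) on the log2 scale. Unlike most members, it was lower in library 2 than in library 1 on days 6 and 9.

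The largest fall from day 3 to day 6 was that of TRINITY_DN17773_c0_g1_i1_4. It had 30.8 and 24.6 FPKM in the control, 3.38 and 0.806 at day 0, 9.70 and 18.8 at day 3, 2.42 and 2.93 at day 6, 3.22 and 8.29 at day 9 and 15.4 and 12.4 at day 12. Day 3 was a passing high between a low on day 0 and a low on day 6. The log2 difference was -1.99 (SE 0.48, limma adjusted p = 0.00877), and the adjusted p was 0.0552 without day 3 library 2 and 0.0506 without day 6 library 1.

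TRINITY_DN2255_c6_g1_i1_1 took a similar course at lower levels. It had 19.0 and 15.0 FPKM in the control, 3.78 and 2.98 at day 0, 7.02 and 14.3 at day 3, 3.29 and 4.42 at day 6, 4.39 and 10.1 at day 9 and 10.3 and 6.75 at day 12. Its libraries of day 3 and day 6 did not overlap. The log2 difference of day 6 from day 3 was -1.20 (SE 0.39, limma adjusted p = 0.0332). The adjusted p was 0.192 when day 3 library 2 was left out, 0.155 for day 6 library 1, 0.0687 for day 6 library 2 and 0.105 when only the 6 libraries of days 3, 6 and 9 were fitted.

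**Figure D3:**
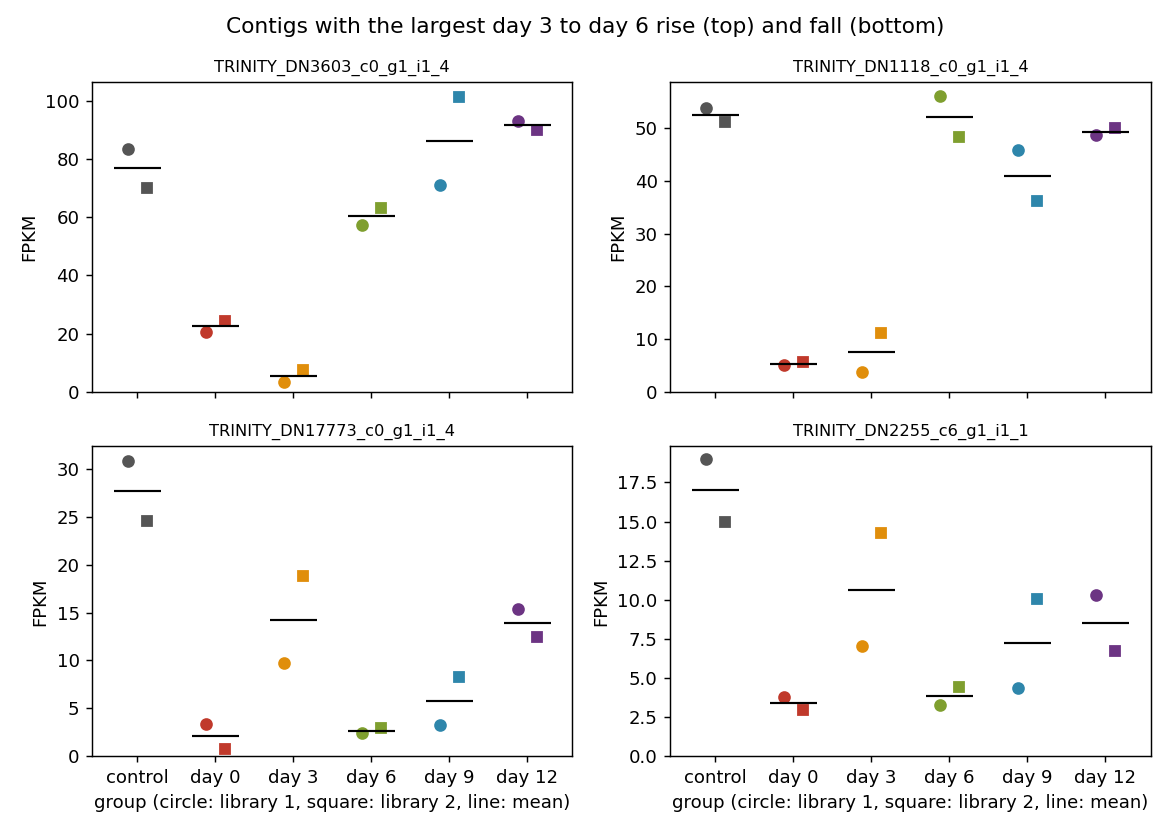
FPKM of the members with the largest rises (top) and falls (bottom) from day 3 to day 6; circles are library 1, squares library 2, and lines the mean of the 2. The upper contigs are near the control from day 6, while the lower ones stood at 2.68 and 3.86 FPKM at day 6 after a high on day 3.

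From day 6 to day 9, 9 members rose and 0 fell by limma, 5.59% and 0% of the 161. Of all tested contigs 5.05% were called higher and 1.50% lower, so the count of rising members is near the background. At an unadjusted limma p under 0.05 there were 45 members, 28.0%, beside 24.5% of all tested contigs. The difference was above 0 in 149 of the 161 members, with a median of 0.68 (quartiles 0.35 and 0.98). It was above 0 in 5136 of the 10346 tested contigs with at least 3 FPKM in both control libraries. The median of all tested contigs was 0.03. All members were read in the same libraries and the rule favours a late rise, so the count of 149 is a description only. Without day 9 library 1, 63 members rose and 1 fell, 39.1% and 0.621%, beside 11.7% and 4.45% of all tested contigs. Without day 9 library 2, limma called 0 members in either direction (beside 2.55% and 0.565% of all tested contigs), with 17 at an unadjusted p under 0.05 (10.6%, beside 18.3%), and the difference was above 0 in 114 members, with a median of 0.21. Without day 6 library 1 or 2 the count of rising members was 0 and 1, beside 1.27% and 1.28% of all tested contigs. With only the 6 libraries of days 3, 6 and 9 in the fit it was 0, beside 0.629%, with 26 members at an unadjusted p under 0.05 (16.1%, beside 17.4%). It was 4 without either control library, beside 3.18% and 3.17%, and 4 without either day 12 library, beside 3.34% in both fits.

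From day 3 to day 9, 56 members rose and 3 fell, 34.8% and 1.86%. The background was 34.9% higher and 16.1% lower, so the share of rising members is that of all tested contigs. The median difference was 0.78 over the members and 0.31 over all tested contigs (log2 scale), and it was 0.56 and 0.10 with rescaled libraries. Without day 9 library 1, 89 members rose and 1 fell, beside 34.6% and 14.4% of all tested contigs. Without day 9 library 2, 41 rose and 13 fell, beside 30.7% and 16.4%. Without day 3 library 1 the counts were 43 and 7, beside 33.7% and 13.1%, and without day 3 library 2 they were 64 and 1, beside 31.7% and 17.2%. Of the 56, 24 were called in neither of the shorter steps. A moderated F test over days 3, 6 and 9 called 52 members, 32.3%, where 52.2% of all tested contigs were called, and 105 members, 65.2%, without day 9 library 1, where the background was 56.2%. In none of the 3 pairwise tests were 97 members called, 60.2%, where 42.4% of all tested contigs were not called.

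The 2 libraries of a group differed in the same direction for most members. On day 3 library 2 was the higher in 143 of 161 members, on day 6 in 128 and on day 9 in 149. Among all tested contigs library 2 was the higher in 45.7%, 48.3% and 56.1%. The median log2 difference of library 1 minus library 2 was -0.53 on day 3, -0.26 on day 6 and -0.997 on day 9 over the members, and 0.01, 0.00449 and -0.07 over all tested contigs. By at least 2-fold on the log2(FPKM + 1) scale, library 2 exceeded library 1 on day 9 in 80 members, 49.7%, and in 6.03% of all tested contigs. In the control the order was the other way, with library 1 the higher in 145 members by a median of 0.26. Library 1 was also the higher in 121 members on day 0 and in 105 on day 12, by medians of 0.29 and 0.10. Among all tested contigs library 1 was the higher in 47.5% in the control, 55.9% on day 0 and 49.6% on day 12. The medians there were 0, 0.04 and 0.

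In 111 members, 68.9%, library 2 was the higher on days 3, 6 and 9 together, against 19.3% of all tested contigs and 21.9% of the contigs with at least 3 FPKM in both control libraries. It was also seen in 89 of the 99 contigs above the control on day 12, 89.9%, and in 36 of the 99 still low then, 36.4%, so the pattern is not particular to the members. What sets these libraries apart was not tested, and no label gives a batch. Whether the day 9 libraries were labelled and sampled as their titles say could not be checked here, so day 9 values are given for each library.

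**Figure D4:**
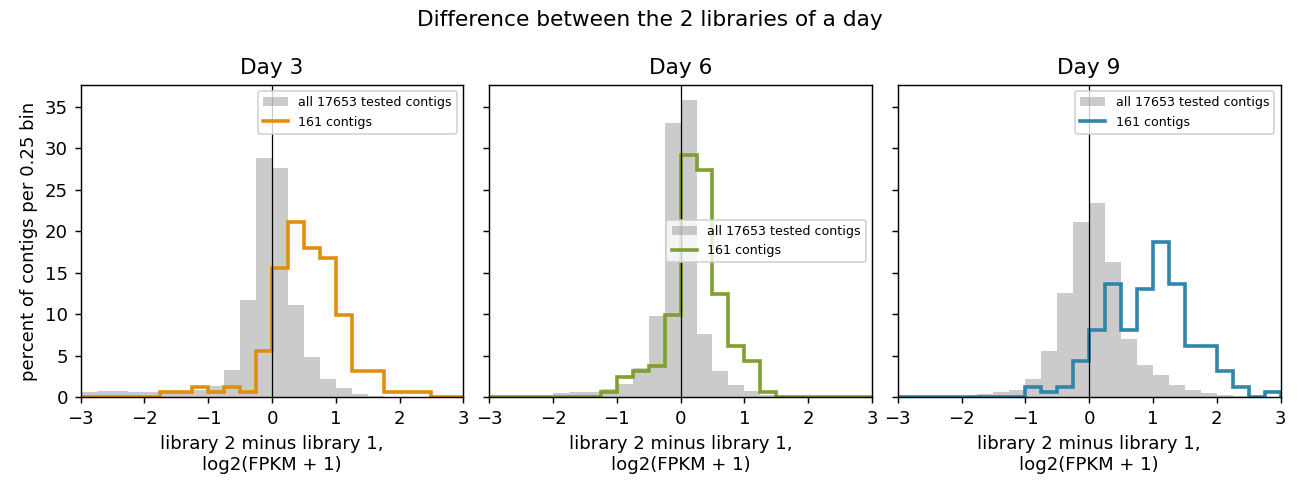
Distribution of the difference between the 2 libraries of day 3, day 6 and day 9, as library 2 minus library 1 of log2(FPKM + 1), in bins of 0.25; filled grey is all 17653 tested contigs and the coloured line the 161 members. The members lie to the right of 0 on all 3 days, furthest on day 9, where 149 are higher in library 2.

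Read library by library, day 9 gave 2 different pictures. Day 9 library 1 was nearer to the day 6 mean than to the day 12 mean for most members, with a median 0.21 above day 6 and 0.89 below day 12 (log2 scale). Day 9 library 2 had a median 1.19 above day 6 and 0.07 below day 12, and was nearer to day 12 in 142 members, 88.2%. For library 1 that number was 30. Of all tested contigs 60.7% were nearer to day 12 in library 2 and 40.6% in library 1. At least 1 below the control were 92 members in library 1 and 12 in library 2. Among the 17653 tested contigs the numbers were 4790 and 4420.

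Contigs with the same day 0 drop but another day 12 level set the members in context. Of the 359 contigs that met the control and day 0 conditions, 161 are the members, 99 were at least 1 below the control on day 12 and 99 at least 1 above it. Their day 12 differences form a continuous spread: 39 lay between -1.5 and -1, 40 between -1 and -0.5, 47 between -0.5 and 0, 46 between 0 and 0.5, 28 between 0.5 and 1, and 35 between 1 and 1.5. The members are its middle. Control and day 0 levels were alike, with medians of 7.78 and 5.84 FPKM in control cells for those still low on day 12 and 8.70 and 7.23 for those above it.

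On day 3 the sets already lay in the order of their day 12 level. L minus control had a median of -2.17 in the contigs still low on day 12, -1.46 in the members and -0.49 in those above the control on day 12. On day 6 the medians were -2.23, -1.27 and 0.04, and on day 9 -1.85, -0.59 and 1.04. From day 3 to day 6, limma called 11 higher and 9 lower of the 93 tested contigs still low on day 12, and 33 higher and 1 lower of the 99 above the control. The former were 11.8% and 9.68% and the latter 33.3% and 1.01%, beside 31.2% and 14.4% of all tested contigs. From day 3 to day 9 limma called 18 higher and 8 lower of the contigs still low, 19.4% and 8.60%. It called 60 higher and 0 lower of those above the control, 60.6% of them higher where it was 34.8% of the members. Of all tested contigs 34.9% were called higher and 16.1% lower. These differences between sets were not tested, since the day 12 level that parts the sets is itself a measure of the same course.

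The difference between the day 9 libraries was shared by these sets. Library 2 was the higher in 94 of the 99 contigs above the control on day 12, with a median of library 1 minus library 2 of -1.06 on the log2 scale. It was the higher in 76 of the 99 still low, with a median of -0.41, where the members had a median of library 1 minus library 2 of -0.997. In the 10369 contigs with at least 3 FPKM in both control libraries library 2 was the higher in 57.1%, with a median of -0.07. The split of the day 9 libraries was therefore seen in contigs with a day 0 drop of each later course.

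**Figure D5:**
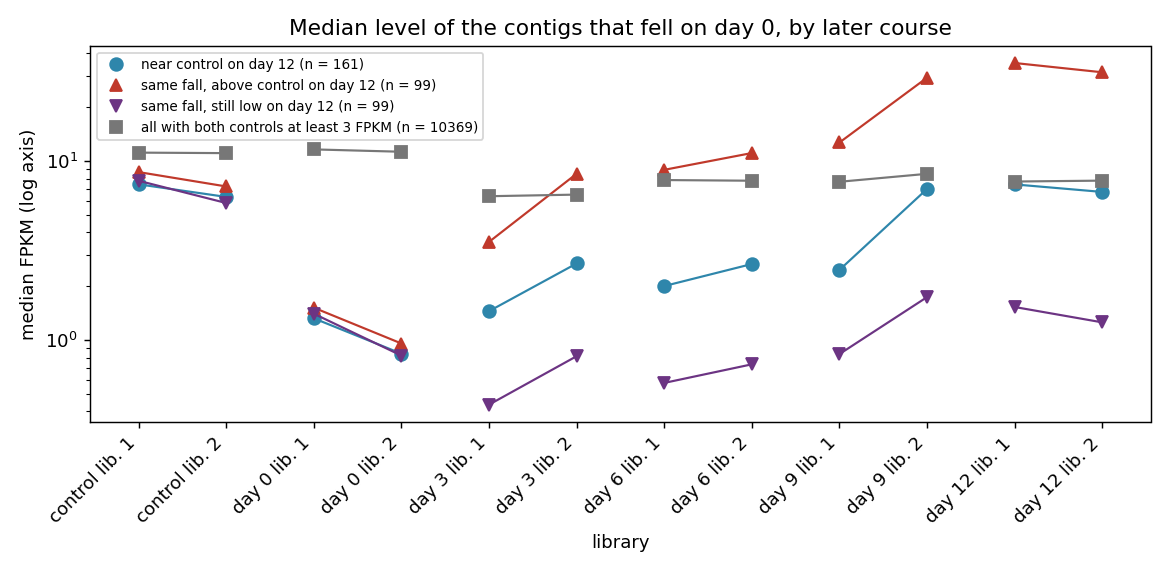
Median FPKM per library (log axis) of the members, of contigs with the same day 0 drop that ended above or below the control on day 12, and of all contigs with at least 3 FPKM in both control libraries; short lines join the 2 libraries of a group. The 3 sets with a drop start together, part from day 3 on and all step up from day 9 library 1 to library 2, while the grey set goes from 7.68 to 8.51 FPKM.

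The names of the contigs hold a little more. Each ends in a number, 1 to 4, that the sources used here do not explain. The number 4 was carried by 84 members, 52.2%, and by 25.2% of the contigs with at least 3 FPKM in both control libraries and 29.0% of all tested contigs. Among all 359 contigs with the day 0 drop it was carried by 47.1%. The numbers 1, 2 and 3 were carried by 31, 24 and 22 members.

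The 161 members came from 156 Trinity clusters, the groups of contigs that the assembler builds from shared sequence. Only 5 clusters held 2 members. In the cluster with the deepest drop, the 2 members stood 3.93 and 2.04 below the control on day 0, and 0.47 above and 0.63 below it on day 12 (L minus control). The clusters of 104 members held 163 further listed contigs, and 73 of these had at least 3 FPKM in both control libraries. Of the 73, 65 were within 1 of the control on day 0, 8 were at least 1 below it and 3 met the limit of -1.5, with a median difference of -0.04. Among all 10369 contigs with at least 3 FPKM in both control libraries, 90.2% were within 1 of the control on day 0 and 8.34% at least 1 below it, so these contigs were near the background. The sources used here do not say how fragments were divided among contigs of a cluster, so values within a cluster are uncertain.

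A value below 0.01 FPKM occurred in 30 members in at least 1 library. There were 5 and 18 such members in the day 0 libraries, 7 and 5 at day 3, 10 and 1 at day 6, and 2 in day 9 library 1. In the control, day 12 and day 9 library 2 there were 0, which for the control follows from the rule. Since the depth in reads is unknown, these are reported as listed.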

How the data were processed

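RNA of whole Chlorella pyrenoidosa cells was sequenced from Illumina TruSeq libraries, per the labels' protocols. The deposited table holds FPKM values that the authors computed, for 30814 contigs with Trinity-style names in 12 libraries. The sources used here name no aligner, quantifier or annotation. Groups came from library titles and the treatment label. Members and lists were chosen with earlier results of these data known.

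The 17653 contigs averaging 1 FPKM or more were fitted on log2(FPKM + 1), pseudocount 1, with limma 3.58.1 in R 4.3.3. All 12 libraries entered a single fit of group means with an intensity trend. Contrasts among days 3, 6 and 9 were adjusted by Benjamini-Hochberg. The fit was also run on simulated data in which libraries vary independently. Those data lack the deviations that same-numbered libraries share here, so nothing about the calls is concluded from them. With 2 libraries against 2, an exact permutation test cannot go below p = 0.333, so none was run. Within each group, no contig had an identical value above 0 in both libraries, and libraries of different groups were not compared in this way. Named contigs are the 2 members with the largest rise and the 2 with the largest fall from day 3 to day 6 among called members whose libraries did not overlap. Other members described without an ID are the 3 highest in control FPKM and the 3 with the largest day 0 drop, except where the text says they were picked after their values were seen. Alternatives were pseudocount 0.1, no filter, a minimum of 5 FPKM, rescaled libraries, the replicate number as a block, a fit of 6 libraries, and leaving out each library. Figures were drawn with Python 3.11.15.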

Additional observations from a re-analysis of the deposited data

How the results depend on the processing

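The number of members by the rule, 161, was 248 with pseudocount 0.1 (140 of them among the 161), 107 with rescaled libraries (92), 273 on the library 1 columns alone (124) and 131 to 316 when a control, day 0 or day 12 library was left out. Members called lower from day 3 to day 6 (5) were 3 with a minimum of 5 FPKM, which left 69 members tested. They were 12 with rescaled libraries and 1 with the libraries of days 3, 6 and 9 alone. Of all tested contigs 24.0%, 22.0% and 11.1% were called lower in these fits. Members called higher from day 6 to day 9 (9) were 3 with pseudocount 0.1, 5 without the filter and 0 with those 6 libraries alone. The shares of all tested contigs were 3.34%, 2.91% and 0.629%. Members called from day 3 to day 9 (56 higher, 3 lower) were 32 higher with a minimum of 5 FPKM. The 32 were 46.4% of the 69 members tested, beside 41.4% of all contigs tested. With rescaled libraries 6 were lower and with the 6 libraries alone 1 was lower, beside 23.9% and 13.3% of all tested contigs. The replicate number as a block gave 5 members higher from day 6 to day 9, beside 3.97% of all tested contigs. It moved no other count by over 1.5 times. Same-numbered libraries had correlated deviations, 0.246 to 0.410 among days 3, 6 and 9 and -0.188 to 0.410 over all 15 pairs of groups. No label says what the number marks, and it was not used as a pairing.

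Leaving out each library in turn gave 19 to 36 members higher and 0 to 14 lower from day 3 to day 6, 0 to 63 higher and 0 to 1 lower from day 6 to day 9, 41 to 89 higher and 1 to 13 lower from day 3 to day 9, and 48 to 105 by the F test. Members near the control from day 9 (77) were 24 to 98 with 1 day 9 library, an alternative chosen after seeing the data. Both named rises stayed called in all 18 alternatives, the 2 named falls lost the call in 2 and 4, and none turned direction. A group left with 1 library is assumed to vary like the others. The causes of these changes were not tested, apart from fewer members or libraries where stated. The unknown read depth limits statements on members near 0 FPKM.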
